A study of Arabidopsis thaliana with 20 samples.

Results

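The xyloglucan endotransglucosylase/hydrolase (XTH) family of Arabidopsis thaliana was followed gene by gene through leaves and stomata, with and without drought, in wild-type plants and in a mutant of guard cell starch breakdown. Its members were taken as the 33 loci numbered XTH1 to XTH33, found on the array through the transcript identifier of each probe. All 33 had a probe, 42 probes in all, of the 43603 probes and 25410 genes matched on the array. Of the 33, 25 had a probe that could be tested, as 19134 genes of the series did.

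RNA was labelled with Cy3 and hybridised to 20 one-colour Agilent arrays, each from a pool of 5 to 8 plants. The 8 groups were stomata bam1 drought (2 arrays), stomata bam1 control (2 arrays), stomata Col-0 drought (2 arrays), stomata Col-0 control (3 arrays), leaf bam1 drought (3 arrays), leaf bam1 control (3 arrays), leaf Col-0 drought (2 arrays) and leaf Col-0 control (3 arrays). The line bam1 is 1 homozygous T-DNA insertion line of the beta-amylase gene BAM1 in the wild-type background Col-0. Drought was a mild water deficit held for 5 days, and the plants are labelled as 5 weeks old in one field and 6 weeks old in another. The stomatal fraction was made by blending leaves without their major veins in ice water and collecting the epidermal pieces on a mesh, so it is enriched in guard cells and is not a pure cell type.

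Xyloglucan is the main hemicellulose of the primary wall of dicotyledonous plants, where it coats and links cellulose microfibrils. XTH enzymes cut a xyloglucan chain and join the cut end to another chain, or in a few cases to water, and so let the wall be remodelled as a cell expands or changes shape. Guard cells are of interest here because their walls are stretched and relaxed each time a stomatal pore opens and closes. By sequence the family falls into group 1 (XTH1 to XTH11), group 2 (XTH12 to XTH26) and group 3 (XTH27 to XTH33), and in group 3A (XTH31 and XTH32) hydrolysis rather than rejoining is the known activity. Runs of members sit side by side on chromosomes 4 and 5: XTH1 with XTH2, XTH23 with XTH14, XTH24 with XTH18 and XTH19, and XTH13 with XTH25 and XTH22, with XTH12 next to this last run.

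Between 63.2% and 75.4% of the spots of an array were well above background, and 0 were saturated. Across probes, the correlation was 0.971 to 0.988 between replicates and 0.896 to 0.940 between stomatal and leaf arrays. BAM1 (AT3G23920) was read as a check of the genotype labels. It lay between 6.45 and 9.71 log2 units on the 10 arrays labelled bam1, and between 10.90 and 13.97 on 9 of the 10 arrays labelled Col-0. The remaining one, the library labelled stomata Col-0 drought replicate 2, read 7.81 and thus went against its label, so the drought values of Col-0 stomata and the interactions that results turn on are given with and without it. All 8 guard cell markers were higher in Col-0 control stomata than in leaves, by 2.41 to 4.58 log2 units. The summed signal of the 4 mesophyll markers lay at 19.75 to 19.92 log2 units in Col-0 control stomata and at 19.71 to 19.80 in leaves, and 0 of the 4 were called between them. Of 6 vascular markers 3 were higher in the stomatal fraction (SUC2, APL and SEOR1, by 1.92, 2.59 and 1.02 log2 units) and 1 was lower (XCP1), and their summed signal was 16.23 to 16.62 there, against 14.60 to 14.88 in leaves.

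Of the 25 tested members, 14 were well above background on every array of all 8 groups: XTH4, XTH5, XTH6, XTH7, XTH8, XTH9, XTH16, XTH22, XTH24, XTH27, XTH28, XTH30, XTH31 and XTH32. Others passed the filter only through the groups in which they were high. XTH33 passed through both bam1 control groups, XTH29 through both droughted stomatal groups, XTH11 through 3 of the stomatal groups, XTH23 through both control stomatal groups, XTH17 through bam1 control stomata and XTH19 through bam1 control leaves. A difference between groups is therefore built into their presence here. The 8 members that were not tested were XTH1 (AT4G13080), XTH2 (AT4G13090), XTH3 (AT3G25050), XTH12 (AT5G57530), XTH14 (AT4G25820), XTH20 (AT5G48070), XTH21 (AT2G18800) and XTH26 (AT4G28850). They stood well above background on 0 to 4 of the 20 arrays each, and XTH14 on none of them. XTH20 and XTH21 are known from roots, an organ not sampled here.

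Drought lowered transcripts of many XTH genes, and few rose. A gene was called when limma gave it a change of at least 2-fold and a p, adjusted by Benjamini-Hochberg over all tested probes, under 0.05. In Col-0 leaves 6 of 25 members were called lower and 0 higher, against 3.77% lower and 2.26% higher among all tested genes. In bam1 leaves 9 were lower and 0 higher, against 3.87% and 1.56%. In Col-0 stomata 2 were lower and 1 higher, against 1.71% and 1.9%. In bam1 stomata 13 were lower and 3 higher, against 3.34% and 3.08%. Some of these calls are partly built in by the filter. They are XTH33, lower in both bam1 tissues, XTH29, higher in stomata of both genotypes, and XTH11, higher in bam1 stomata. The median log2 change of the tested members was -0.41 in Col-0 leaves, -0.91 in bam1 leaves, -0.49 in Col-0 stomata and -1.48 in bam1 stomata, where the median of all genes lay between -0.02 and 0.03. Among the 14 members above background in every group, 5, 7, 2 and 10 were called in either direction in Col-0 leaves, bam1 leaves, Col-0 stomata and bam1 stomata. All of those were falls except XTH31 in bam1 stomata. These 4 comparisons share no array. Called lower in at least 2 of them were 8 members, where 3.46% of all genes were, and called lower in all 4 were XTH6 and XTH7, where 0.523% of all genes were. Of the 8 guard cell markers 1 was called higher in droughted Col-0 leaves and 0 in the other 3 comparisons, 0 of the 4 mesophyll markers were called, 1 of the 6 vascular markers was lower in each of the bam1 comparisons, and 1 of the 4 epidermis and trichome markers was lower in the leaves of each genotype. Their part in these counts was not tested. In such bulk samples fewer cells of a type and less RNA per cell cannot be told apart.

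**Figure D1:**
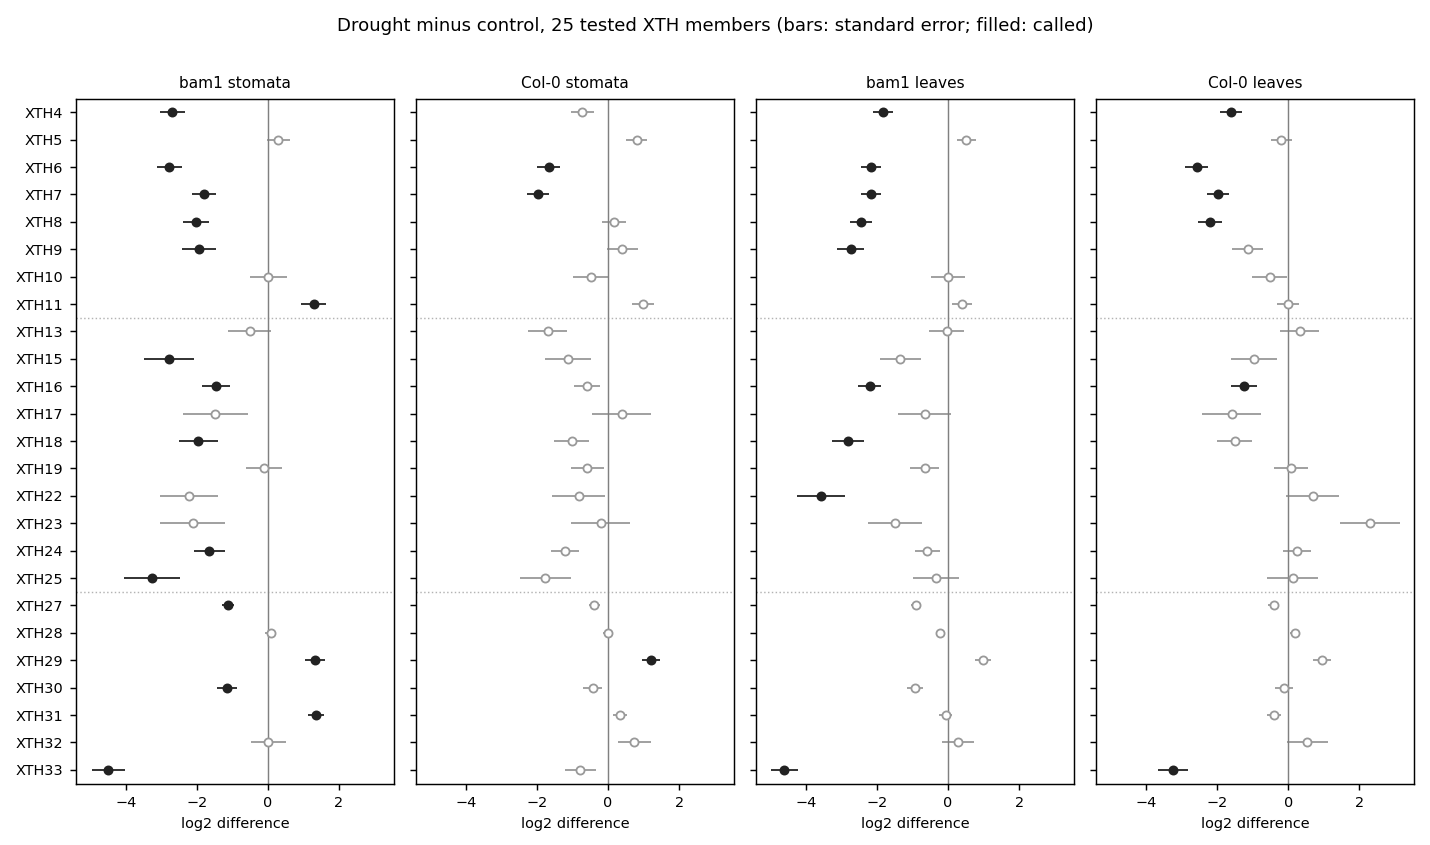
Log2 difference of drought minus control for the 25 tested XTH members, 1 panel for each genotype and tissue, with the standard error as a bar. Filled points were called and open points were not, and dotted lines separate groups 1, 2 and 3. Filled points to the left number 13 in bam1 stomata, 2 in Col-0 stomata, 9 in bam1 leaves and 6 in Col-0 leaves.

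Group 1 held both members that fell in all 4 comparisons. Of its 8 tested members 4 were called lower in Col-0 leaves, 5 in bam1 leaves, 2 in Col-0 stomata and 5 in bam1 stomata. XTH6 (AT5G65730) read 8.31 and 9.52 log2 units in droughted Col-0 leaves, against 11.34, 11.54 and 11.57 in control leaves. In bam1 leaves it read 10.14, 10.03 and 9.82 under drought, against 12.01, 12.13 and 12.33 in the controls. Droughted stomata lay lower as well, at 10.25 and 11.06 in Col-0, against 12.21, 12.45 and 12.33 in control stomata, and at 10.56 and 9.77 in bam1, against 12.65 and 13.23. In none of the 4 pairs did the groups overlap. The falls were 5.92-fold in Col-0 leaves (log2 change -2.57 ± 0.32 SE, adjusted p = 0.000163), 4.48-fold in bam1 leaves (-2.16 ± 0.29, adjusted p = 0.000236), 3.19-fold in Col-0 stomata (-1.67 ± 0.32, adjusted p = 0.00593) and 6.86-fold in bam1 stomata (-2.78 ± 0.36, adjusted p = 0.000309). In Col-0 stomata the call of XTH6 was lost without replicate 1 of the drought group (-1.27, adjusted p = 0.097), the array with the BAM1 level of its label, and was kept without replicate 2 (-2.07, adjusted p = 0.00648).

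XTH7 (AT4G37800) fell in all 4 pairs too. Droughted Col-0 leaves gave 12.04 and 12.86 log2 units, against 14.08, 14.93 and 14.24 in control leaves, and droughted bam1 leaves gave 11.91, 11.65 and 11.96, against 13.61, 13.80 and 14.59. In stomata the droughted values were 11.85 and 12.30 in Col-0, against 13.98, 13.99 and 14.14 in the controls, and 12.25 and 12.02 in bam1, against 13.74 and 14.12. No droughted array reached a control array of its pair. The log2 changes were -1.97 ± 0.31 and -2.16 ± 0.28 in Col-0 and bam1 leaves and -1.96 ± 0.31 and -1.80 ± 0.34 in Col-0 and bam1 stomata, with adjusted p between 0.000166 and 0.00369. Without the library that went against its label the change in Col-0 stomata was -2.18 (adjusted p = 0.0054).

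XTH4 (AT2G06850), long known as EXGT-A1 and an abundant XTH of expanding tissue, fell in both leaf types and in bam1 stomata. It read 12.14 and 12.55 log2 units in droughted Col-0 leaves, against 13.68, 14.17 and 14.01 in controls, and 12.60, 12.79 and 12.61 in droughted bam1 leaves, against 14.67, 14.40 and 14.45. Stomatal levels were far lower, at 10.11 and 9.36 in droughted bam1 stomata, against 11.98 and 12.87 in the controls, and at 9.82 and 10.74 in droughted Col-0 stomata, against 10.74, 11.41 and 10.86. Only the last pair overlapped. The changes were -1.60 ± 0.32 (adjusted p = 0.00377), -1.84 ± 0.28 (adjusted p = 0.00066) and -2.69 ± 0.35 (adjusted p = 0.000324), and in Col-0 stomata -0.72 ± 0.32 (adjusted p = 0.186), or -1.18 (adjusted p = 0.0615) without replicate 2 of the drought group. The call in Col-0 leaves was lost without replicate 1 of the drought group (-1.40, adjusted p = 0.0607). A second probe of XTH4 was called lower in the same 3 comparisons.

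XTH8 (AT1G11545) was called lower everywhere except in Col-0 stomata. Droughted leaves read 8.77 and 9.21 log2 units in Col-0, against 10.98, 11.26 and 11.31 in controls, and 8.49, 8.78 and 8.89 in bam1, against 11.42, 10.71 and 11.38. In bam1 stomata 8.18 and 9.13 under drought stood against 10.70 and 10.67, whereas Col-0 stomata read 9.29 and 9.45 under drought, against 8.59, 9.90 and 9.14. The groups overlapped only in Col-0 stomata, whose controls overlapped the droughted leaves in level. The log2 changes were -2.20 ± 0.34 (adjusted p = 0.000699), -2.45 ± 0.30 (adjusted p = 0.000127) and -2.03 ± 0.37 (adjusted p = 0.00303) in Col-0 leaves, bam1 leaves and bam1 stomata, and 0.16 ± 0.34 (adjusted p = 0.836) in Col-0 stomata, where it was 0.08 (adjusted p = 0.943) without drought replicate 2. The change in Col-0 stomata minus that in Col-0 leaves was 2.35 ± 0.48 (adjusted p = 0.0256), the one member called among the interactions of tissue with drought in Col-0, where 1.79% of all genes were called. Without replicate 2 of droughted Col-0 stomata it was 2.28 (adjusted p = 0.0592), and the call was also lost without replicate 1 of that group (2.43, adjusted p = 0.0534), replicate 1 of droughted Col-0 leaves (2.13, adjusted p = 0.0946), replicate 3 of Col-0 control leaves (2.29, adjusted p = 0.059) or replicate 3 of Col-0 control stomata (2.32, adjusted p = 0.0506).

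XTH9 (AT4G03210), known from shoot apices, was called lower in both bam1 tissues and in neither of Col-0. It read 10.98, 10.81 and 10.75 log2 units in droughted bam1 leaves, against 13.87, 13.25 and 13.64 in control leaves, and 12.28 and 10.80 in droughted bam1 stomata, against 13.52 and 13.46. Col-0 leaves read 10.03 and 10.95 under drought, against 11.52, 11.91 and 11.46, and Col-0 stomata 11.75 and 12.85, against 11.77, 12.53 and 11.40. The droughted leaves of both genotypes overlapped, and the bam1 controls stood above all Col-0 controls. Its changes were -2.74 ± 0.39 (adjusted p = 0.000354) in bam1 leaves, -1.95 ± 0.47 (adjusted p = 0.0154) in bam1 stomata, -1.14 ± 0.43 (adjusted p = 0.0963) in Col-0 leaves and 0.40 ± 0.43 (adjusted p = 0.639) in Col-0 stomata, where it was -0.15 (adjusted p = 0.904) without replicate 2 of the drought group. Omitting replicate 2 of droughted bam1 stomata gave -1.20 and ended that call (adjusted p = 0.194), as did omitting either control array (adjusted p = 0.0505 and 0.0727). The drought change in bam1 minus that in Col-0 was -1.60 ± 0.58 in leaves and -2.35 ± 0.64 in stomata, neither of them called (adjusted p = 0.321 and 0.594).

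**Figure D2:**
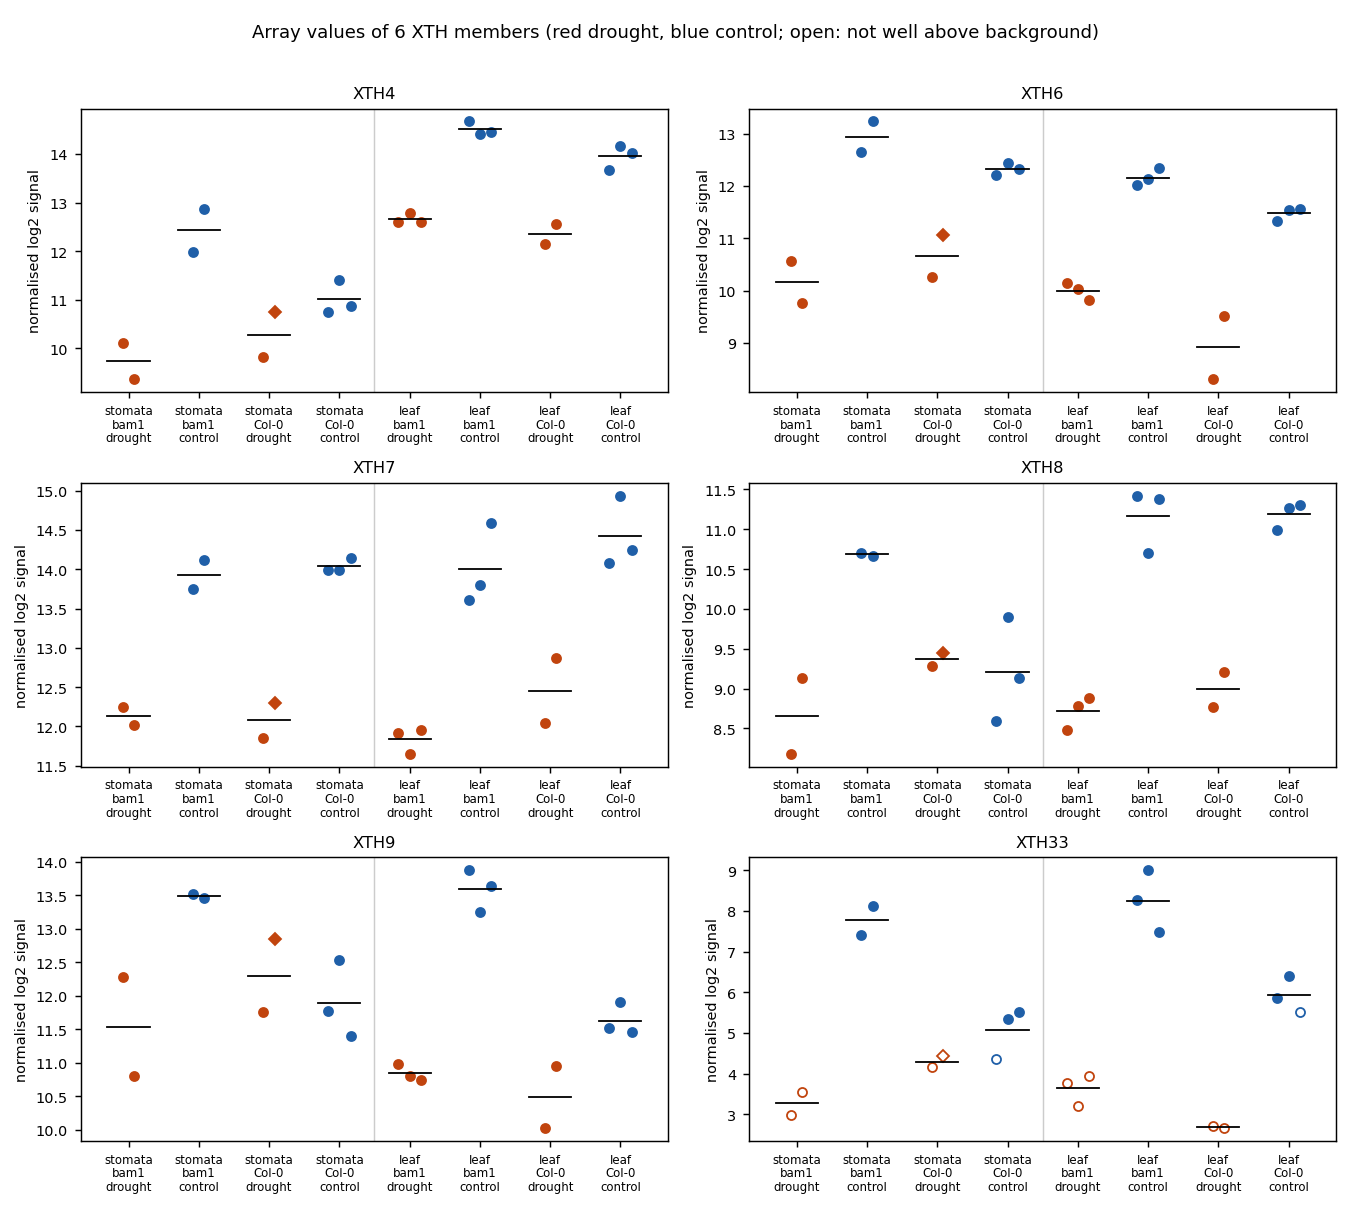
Normalised log2 signal of 6 XTH members on each array, by tissue, genotype and treatment, with droughted groups in red and controls in blue. Lines are group means, open symbols were not well above background, and the diamond is the library labelled stomata Col-0 drought replicate 2. XTH6 and XTH7 fell in all 4 pairs, XTH8 was not called in Col-0 stomata, and XTH9 and XTH33 were highest in the bam1 controls.

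The other tested members of group 1 were not called lower. XTH5 (AT5G13870) and XTH10 (AT2G14620) were called in none of the 4 comparisons, with changes between -0.52 and 0.80. XTH11 (AT3G48580) was not well above background on any leaf array. It passed the filter through stomatal groups other than bam1 control stomata, so a rise in bam1 stomata is partly built in. It read 6.0 and 5.45 log2 units in droughted bam1 stomata, against 4.83 and 4.05 in the controls, of which 1 was well above background. That difference was called (1.28 ± 0.34, adjusted p = 0.0234), but leaving out drought replicate 1 or control replicate 2 ended the call (adjusted p = 0.157 and 0.214). In Col-0 stomata the difference of XTH11 was 0.98 ± 0.31 (adjusted p = 0.0652), or 1.13 (adjusted p = 0.102) without replicate 2 of the drought group.

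In group 2 no member was called higher under drought, and 1, 3, 0 and 5 of its 10 tested members were called lower in Col-0 leaves, bam1 leaves, Col-0 stomata and bam1 stomata. XTH16 (AT3G23730) read 6.85 and 8.09 log2 units in droughted Col-0 leaves, against 8.86, 9.01 and 8.28 in controls, and 7.87, 7.76 and 7.69 in droughted bam1 leaves, against 10.27, 9.93 and 9.76. Droughted bam1 stomata read 9.94 and 9.26, against 11.56 and 10.56. None of these 3 pairs overlapped, and neither did Col-0 stomata, at 10.14 and 10.30 under drought, against 10.82, 10.51 and 11.11. XTH16 fell by 2.21 ± 0.32 on the log2 scale in bam1 leaves (adjusted p = 0.000445), by 1.25 ± 0.36 in Col-0 leaves (adjusted p = 0.0322) and by 1.46 ± 0.39 in bam1 stomata (adjusted p = 0.0258), while the change in Col-0 stomata was -0.60 (adjusted p = 0.351), or -0.68 (adjusted p = 0.416) without drought replicate 2. In Col-0 leaves the change was -0.63 with drought replicate 1 left out, and that omission ended the call (adjusted p = 0.381), as did those of control replicates 1 and 2 (adjusted p = 0.0795 and 0.091). In bam1 stomata, omitting drought replicate 2 gave -1.12 and omitting control replicate 1 gave -0.96, and neither was called (adjusted p = 0.215 and 0.175).

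XTH18 (AT4G30280) fell in both bam1 tissues. It read 5.81, 4.46 and 5.40 log2 units in droughted bam1 leaves, against 8.12, 7.57 and 8.39 in the controls, and 5.40 and 5.84 in droughted bam1 stomata, against 7.42 and 7.75. The falls were 2.81 ± 0.45 (adjusted p = 0.000849) and 1.97 ± 0.55 (adjusted p = 0.0297) on the log2 scale. The stomatal call was lost when any 1 of its 4 arrays was left out, with adjusted p of 0.141 and 0.0918 without drought replicates 1 and 2, and of 0.0572 and 0.152 without control replicates 1 and 2. In Col-0 its changes of -1.51 ± 0.50 in leaves and -1.02 ± 0.50 in stomata were not called (adjusted p = 0.0585 and 0.237), and the stomatal one was -1.74 without drought replicate 2. The fall in Col-0 leaves was called in some alternative fits. Among them were the 75th percentile shift (-1.56, adjusted p = 0.0306) and the fit without control leaf replicate 1 (-1.92, adjusted p = 0.0239).

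XTH22 (AT5G57560), the touch-induced gene TCH4, was called in bam1 leaves alone. There it read 9.49, 8.92 and 8.88 log2 units under drought, against 13.10, 13.11 and 11.81 in the controls, a fall of 12.0-fold (log2 change -3.58 ± 0.67, adjusted p = 0.00265). Col-0 leaves were spread widely, at 11.48 and 9.19 under drought, against 8.44, 11.10 and 9.41. In bam1 stomata it read 9.25 and 8.36 under drought, against 10.94 and 11.10, a change of -2.22 ± 0.82 that was not called (adjusted p = 0.094). The interaction of genotype with drought in leaves was -4.27 ± 1.00 for XTH22, the lowest value among the members, at an adjusted p of 0.189.

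XTH15, XTH24 and XTH25 fell in bam1 stomata, and in Col-0 stomata they were called only when replicate 2 of the drought group was left out, apart from XTH24, which was also called with the replicate block (-1.33, adjusted p = 0.0437) and without bam1 control leaf replicate 2 (-1.22, adjusted p = 0.0455). XTH15 (AT4G14130), also called XTR7 and known from shade avoidance, read 5.17 and 3.89 log2 units in droughted bam1 stomata, against 7.01 and 7.61 in the controls. XTH25 (AT5G57550) read 6.34 and 3.98 there, against 8.49 and 8.38. XTH24 (AT4G30270), also called MERI5B, read 9.63 and 9.62, against 10.76 and 11.78. All 3 pairs were apart, and all 3 members were called lower, with log2 changes of -2.78 ± 0.71 for XTH15 (adjusted p = 0.0193), -3.28 ± 0.79 for XTH25 (adjusted p = 0.0143) and -1.65 ± 0.43 for XTH24 (adjusted p = 0.0213). In leaves none was called. XTH15 changed by -1.35 in bam1 leaves (95% interval -2.58 to -0.11) and by -0.95 in Col-0 leaves (-2.33 to 0.43). With only the groups compared it was called lower in bam1 leaves (adjusted p = 0.0111). XTH25 and XTH24 changed by -0.33 and -0.58 in bam1 leaves and by 0.13 and 0.24 in Col-0 leaves. In droughted Col-0 stomata the library with the BAM1 level of its label read 2.92 for XTH15, 4.06 for XTH25 and 8.56 for XTH24, whereas replicate 2 read 6.20, 6.42 and 9.72. The controls read 5.61, 5.73 and 5.71 for XTH15, 5.98, 7.73 and 7.33 for XTH25 and 10.41, 10.75 and 9.91 for XTH24. Replicate 1 thus lay below all controls for all 3 genes, and replicate 2 above the highest control for XTH15 only. In droughted stomata of each genotype 1 of the 2 arrays was well above background for XTH15 and for XTH25, and both were for XTH24. The sizes of the XTH15 and XTH25 falls are therefore uncertain. With both arrays the changes in Col-0 stomata were -1.12, -1.77 and -1.22 for XTH15, XTH25 and XTH24 (adjusted p = 0.324, 0.152 and 0.0701). Without replicate 2 they were -2.77, -2.95 and -1.80, and all 3 were called (adjusted p = 0.00202, 0.0366 and 0.0267), with 1 droughted array left and its spread taken from the other groups. Then 5 members were lower and 0 higher in Col-0 stomata, against 2.58% and 1.98% of all genes, and the median change of the members was -0.68. In bam1 stomata, omitting drought replicate 2 left XTH15, XTH24 and XTH25 at adjusted p of 0.181, 0.108 and 0.182, and omitting control replicate 2 left them at 0.123, 0.205 and 0.0696, while XTH24 also failed without drought replicate 1 (adjusted p = 0.08).

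**Figure D3:**
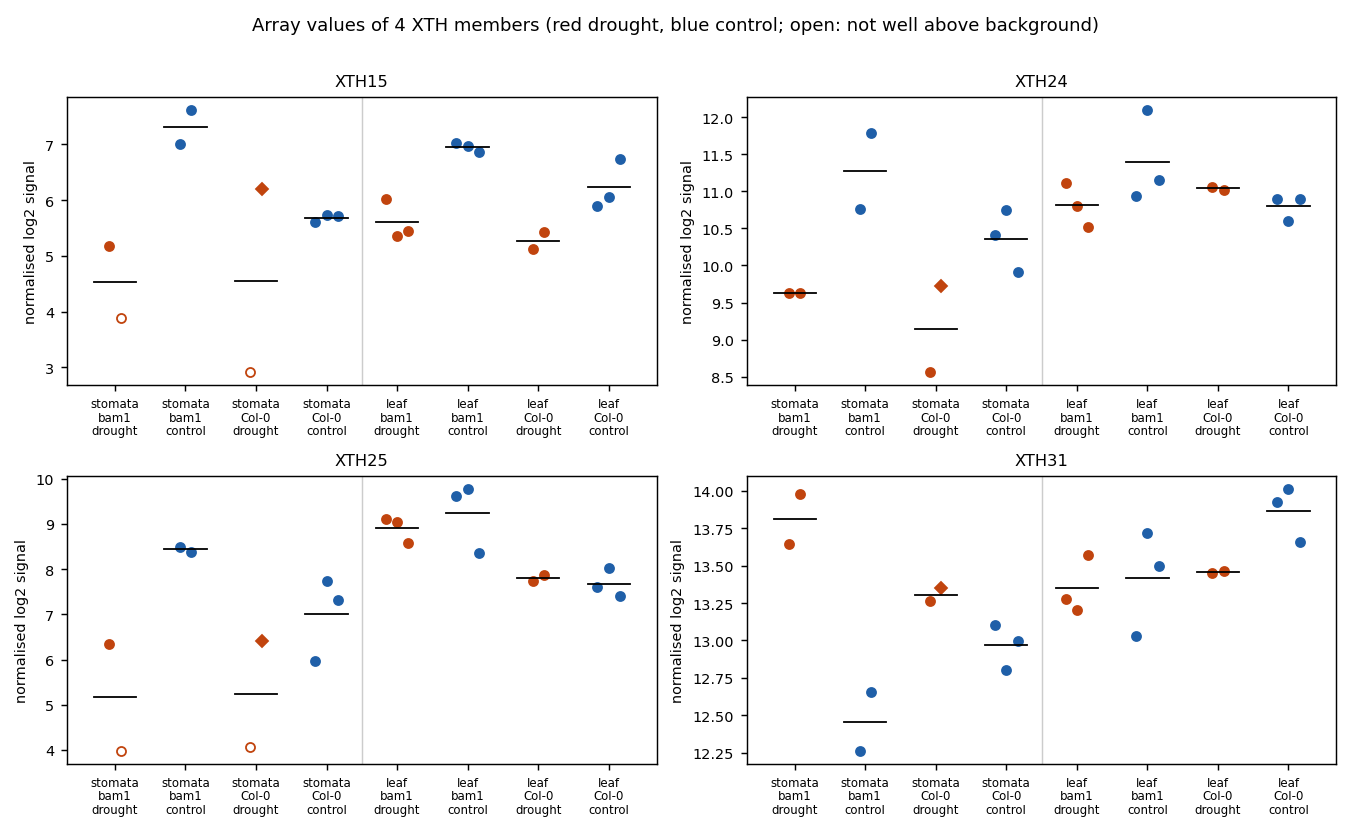
Normalised log2 signal of XTH15, XTH24, XTH25 and XTH31 on each array, with droughted groups in red and controls in blue, group means as lines, open symbols where a spot was not well above background, and the diamond for the library labelled stomata Col-0 drought replicate 2. For XTH15 the diamond stands at 6.20 and the other droughted Col-0 stomatal array at 2.92. XTH31 is the one of the 4 that is higher in droughted than in control bam1 stomata.

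The remaining tested members of group 2 were called in no drought comparison. They were XTH13 (AT5G57540), XTH17 (AT1G65310), XTH19 (AT4G30290) and XTH23 (AT4G25810, also called XTR6). In Col-0 stomata XTH13 changed by -1.70 (95% interval -2.87 to -0.52), or by -1.49 without replicate 2 of the drought group. It was well above background there on 0 of 2 droughted and 3 of 3 control arrays, so the size is not firm. It was called lower there in some alternative fits, among them those without any 1 bam1 stomatal array. In bam1 stomata the XTH13 change was -0.51, or -1.75 without control replicate 1. XTH23 was well above background on 0 of 3 Col-0 control leaf arrays and on 0 of 2 droughted bam1 stomatal arrays, so its drought differences have no size there (adjusted p = 0.0828 in Col-0 leaves, 0.156 in bam1 stomata). With only the groups compared, XTH23 was called higher in droughted Col-0 leaves (adjusted p = 0.0188), where 1 of 2 arrays was well above background. The tandem neighbours XTH24, XTH18 and XTH19 did not share their calls: XTH18 alone was called in bam1 leaves, XTH18 and XTH24 in bam1 stomata, and XTH19 in neither. In the other run XTH22 was called in bam1 leaves and XTH25 in bam1 stomata, and XTH13 in neither.

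In group 3 the changes ran both ways, with 2 of its 7 members called higher and 3 lower in bam1 stomata. XTH33 (AT1G10550), which carries a predicted membrane anchor, had the lowest log2 change of any member in 3 of the 4 drought comparisons. No droughted array was well above background for XTH33: droughted leaves read 2.71 and 2.66 log2 units in Col-0, against 5.85, 6.40 and 5.52 in the controls, and 3.78, 3.20 and 3.95 in bam1, against 8.26, 9.0 and 7.49. Droughted bam1 stomata read 2.99 and 3.56, against 7.40 and 8.13. These groups were wide apart, although 1 of the 3 Col-0 control leaves was itself not well above background. XTH33 passed the filter only through the bam1 control groups, so its falls in bam1 are partly built into its being tested. For bounds, each dim array was set to the higher of its own value and the lowest signal well above background on that array. XTH33 was then at least 8.80-fold lower under drought in Col-0 leaves (adjusted p = 0.000241), at least 24.4-fold lower in bam1 leaves (adjusted p = 8.22e-06) and at least 22.5-fold lower in bam1 stomata (adjusted p = 6.99e-05). These XTH33 bounds hold only for the processing used here. Over the alternatives the smallest log2 changes were -0.73, -2.04 and -1.79 in these comparisons. Col-0 stomata read 4.16 and 4.42 under drought, against 4.35, 5.35 and 5.52, with 2 of the 3 controls well above background, a difference that was not called (adjusted p = 0.3, or 0.352 without replicate 2 of the drought group).

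XTH27 (AT2G01850), also called EXGT-A3 and known from leaf veins, and XTH30 (AT1G32170) fell modestly in bam1 stomata. XTH27 read 14.35 and 14.02 log2 units under drought there, against 15.15 and 15.48 in the controls, and XTH30 read 10.87 and 10.36, against 11.82 and 11.72. The changes were -1.13 ± 0.17 (adjusted p = 0.00104) and -1.16 ± 0.29 (adjusted p = 0.0164). Both lay close to the 2-fold threshold: XTH27 dropped under it without drought replicate 2 or control replicate 2 (-0.96 each, adjusted p = 0.0194 and 0.0161), and XTH30 was not called with drought replicate 2 left out (-0.91, adjusted p = 0.16), nor with either control array left out (adjusted p = 0.0582 and 0.0682). In bam1 leaves XTH27 and XTH30 changed by -0.91 and -0.93, past the adjusted p but under 2-fold (adjusted p = 0.000726 and 0.0162).

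XTH31 (AT3G44990), of the hydrolytic group 3A, rose in bam1 stomata. It read 13.64 and 13.98 log2 units there under drought, against 12.26 and 12.65 in the controls, 2.56-fold higher (log2 change 1.35 ± 0.22, adjusted p = 0.00128). In Col-0 stomata its change was 0.34 ± 0.20 (adjusted p = 0.332), or 0.30 (adjusted p = 0.533) without drought replicate 2, and in leaves -0.41 ± 0.20 (Col-0, adjusted p = 0.19) and -0.07 ± 0.18 (bam1, adjusted p = 0.861). Its group 3A partner XTH32 (AT2G36870) was called in no comparison. In 2 arrays an outlier mark removed its value, so that droughted Col-0 leaves held 1 value.

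XTH29 (AT4G18990) rose in stomata of both genotypes. Droughted Col-0 stomata read 6.25 and 6.40 log2 units, against 4.82, 5.13 and 5.41, and droughted bam1 stomata 6.69 and 6.32, against 5.42 and 4.95. Every droughted stomatal array was above every control one. XTH29 was tested only because both droughted stomatal groups stood above background, so a rise there is partly built in. The log2 changes were 1.20 ± 0.25 (adjusted p = 0.00978) and 1.32 ± 0.28 (adjusted p = 0.0071). The controls were well above background on 2 of 3 arrays in Col-0 and on 1 of 2 in bam1. In Col-0 stomata XTH29 was no longer called without drought replicate 1 (1.28, adjusted p = 0.0568) or replicate 2, the one that went against its label (1.13, adjusted p = 0.0545). In bam1 stomata, leaving out drought replicate 1 or control replicate 2 gave 1.13 and 1.08 and ended the call (adjusted p = 0.0579 and 0.0779). With the background corrected by normexp, or with the arrays scaled on their 75th percentile, XTH29 was called in neither. In leaves it was not called and no size is given, since it was well above background on 0 of the 5 Col-0 arrays and on 1 of the 6 bam1 arrays. XTH28 (AT1G14720), known for its part in stamen filament growth, changed by -0.22 to 0.20 over the 4 comparisons and was not called.

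The 16 calls in bam1 stomata rest on 2 arrays a side. Left to those 4 arrays alone, limma called 0 members in bam1 stomata, with 18 at an unadjusted p under 0.05. With the slide as a block 3 were called (XTH4, XTH6 and XTH33), and no slide held both a droughted and a control array of bam1 stomata. Nor did any slide hold both for Col-0 stomata. In leaves, slide 1 held a droughted and a control Col-0 array and slide 6 a droughted and a control bam1 array: all 6 and all 9 members called there fell at least 2-fold within that slide too. Replicates 1 and 2 of bam1 control stomata differed in summed marker signal, at 15.77 and 14.64 log2 units for guard cell and 16.71 and 15.92 for vascular markers. The droughted ones read 14.89 and 15.02 for guard cell and 16.68 and 16.80 for vascular markers. The part of this in the calls was not tested.

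Whether drought acted differently in the 2 genotypes was tested as an interaction. Called were 0 of 25 members in stomata, where 0.0209% of all genes were, and 0 in leaves, where 0.00523% were. In each tissue 7 members had a p under 0.05 before adjustment. In stomata the difference of the drought changes, bam1 minus Col-0, was -2.35 for XTH9 (95% interval -3.72 to -0.97), -2.19 for XTH8 (-3.26 to -1.11, adjusted p = 0.366), -1.97 for XTH4 (-2.98 to -0.97, adjusted p = 0.446) and 1.02 for XTH31 (0.39 to 1.64, adjusted p = 0.613). For XTH7 it was 0.16 (-0.82 to 1.15). The single intervals of the first 4 leave out 0, but none passed the adjustment over all probes. These values moved with the low BAM1 library: for XTH15 the difference was -1.66 with that library and -0.02 without it, for XTH25 -1.51 and -0.33, and for XTH24 -0.43 and 0.15. Without it the difference was -1.80 for XTH9 (adjusted p = 0.586), -2.11 for XTH8 (adjusted p = 0.281), -1.51 for XTH4 (adjusted p = 0.39), 1.06 for XTH31 (adjusted p = 0.41) and 0.39 for XTH7 (adjusted p = 0.965). For XTH33 no size is given, since 0 droughted stomatal arrays of either genotype were well above background, and its adjusted p was 0.137, or 0.0757 without that library. Without bam1 control stomata replicate 1, XTH4 (-2.42, adjusted p = 0.0398) and XTH33 (adjusted p = 0.0189) were called. The interaction of tissue with drought in bam1 called 0 members, where 0.0784% of all genes were, with 2 members at an unadjusted p under 0.05.

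Several members were higher in bam1 without drought. In control leaves 4 members were called higher in bam1 than in Col-0 and 0 lower, where 0.46% of all genes were called in either direction. They were XTH27, at 15.04, 15.23 and 14.78 log2 units in bam1, against 13.80, 13.64 and 13.73 in Col-0, then XTH30, at 11.21, 11.02 and 10.92, against 9.41, 9.98 and 9.74, and XTH9 and XTH33, whose values stand above. No bam1 array overlapped a Col-0 array in any of the 4. For XTH33, which passed the filter only through the bam1 control groups, a higher bam1 level is partly built in. The log2 differences were 1.30 ± 0.14 for XTH27 (adjusted p = 0.000394), 1.34 ± 0.23 for XTH30 (adjusted p = 0.0139), 1.96 ± 0.39 for XTH9 (adjusted p = 0.0309) and 2.33 ± 0.39 for XTH33 (adjusted p = 0.0106). In each single omission of a control leaf array the XTH27 call was kept, while that of XTH9 was lost in all 6 (adjusted p between 0.064 and 0.138), that of XTH30 in 4 (without Col-0 replicate 1 or 3, or bam1 replicate 1 or 2, adjusted p between 0.0571 and 0.0736) and that of XTH33 in 3 (without Col-0 replicate 3, or bam1 replicate 1 or 2, adjusted p between 0.0525 and 0.0658). XTH22 had the highest difference of any member, 3.03 ± 0.67, and was not called (adjusted p = 0.0536), though it was without Col-0 control replicate 2 (3.75, adjusted p = 0.0206), bam1 control replicate 3 (3.46, adjusted p = 0.0469) or either droughted Col-0 leaf array (3.03, adjusted p = 0.0374 each). No slide held control leaves of both genotypes, and with the slide as a block 0 of these 4 were called.

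In control stomata 1 member, XTH33, was called higher in bam1 than in Col-0, where 0.0575% of all genes were called. It read 7.40 and 8.13 log2 units in bam1, against 4.35, 5.35 and 5.52 in Col-0, a difference of 2.69 ± 0.43 (adjusted p = 0.0334). Since XTH33 was tested only through the bam1 control groups, this difference is partly built in. The call was lost without bam1 control replicate 2 (2.33, adjusted p = 0.321), the array with the highest BAM1 signal of its genotype, or without Col-0 control replicate 1 (2.33, adjusted p = 0.123), 2 (2.83, adjusted p = 0.0545) or 3 (2.92, adjusted p = 0.0719). It was also lost without Col-0 control leaf replicate 1 (adjusted p = 0.0583), either droughted Col-0 leaf array (adjusted p = 0.0539 each) or bam1 droughted leaf replicate 1 (adjusted p = 0.0594) or 3 (adjusted p = 0.0536), arrays that enter only through the shared spread. In droughted leaves 0 members were called between the genotypes, where 0.298% of all genes were, with 3 members at an unadjusted p under 0.05. XTH27 passed the adjusted p there but not 2-fold (0.80 ± 0.16, adjusted p = 0.0417). The comparisons of bam1 with Col-0, in leaves and in control stomata, share arrays with the drought comparisons, so they are not independent of the falls described for bam1. For XTH33 the higher level in bam1 control stomata and the fall under drought there rest on the same 2 control arrays, at 7.40 and 8.13.

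**Figure D4:**
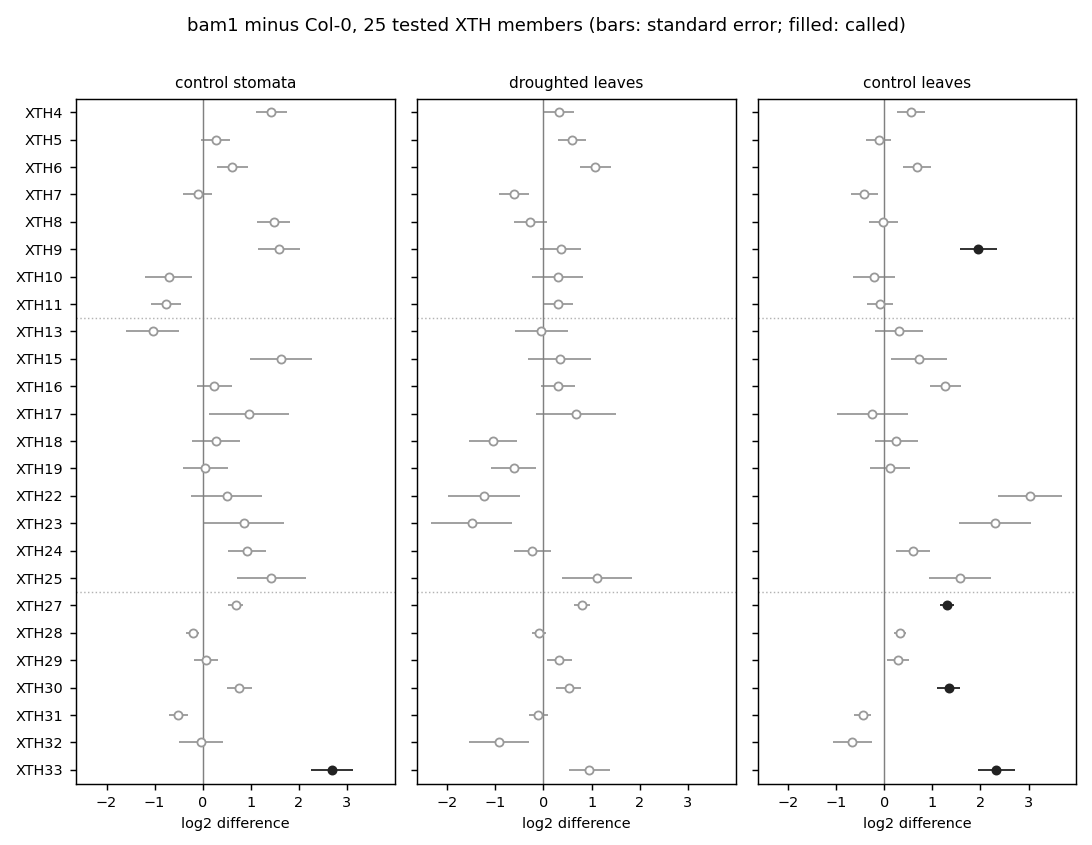
Log2 difference of bam1 minus Col-0 for the 25 tested XTH members in control stomata, droughted leaves and control leaves, with the standard error as a bar, filled where called. XTH33 is filled in control stomata, none in droughted leaves, and XTH9, XTH27, XTH30 and XTH33 in control leaves.

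Stomata and leaves differed in several XTH genes. In Col-0 controls 5 members were called higher in stomata and 3 lower, against 12.2% and 8.33% of all genes. In bam1 controls 4 were higher and 1 lower, against 11.6% and 6.84%, and in droughted bam1 plants 4 were higher and 3 lower, against 13% and 6.16%. Most genes called between the tissues lie outside the family, and the members' shares were not tested against those of all genes. Called the same way in all 3 were XTH4, lower in stomata, and XTH10, XTH11 and XTH16, higher.

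XTH4 was lower in stomata throughout. It read 10.74, 11.41 and 10.86 log2 units in Col-0 control stomata, against 13.68, 14.17 and 14.01 in leaves, 7.73-fold lower (log2 difference -2.95 ± 0.28, adjusted p = 1.23e-06), and its differences in bam1 were -2.08 ± 0.32 in controls and -2.93 ± 0.32 under drought. XTH8 was 3.93-fold lower in Col-0 control stomata (8.59, 9.90 and 9.14, against 10.98, 11.26 and 11.31, adjusted p = 8.16e-05). In bam1 controls the XTH8 difference was -0.48 ± 0.34 (adjusted p = 0.261). XTH19 read 4.47, 4.28 and 4.11 in Col-0 control stomata, against 5.77, 5.38 and 4.99 in leaves (-1.09 ± 0.42, adjusted p = 0.039), and its call was lost without leaf replicate 1 or 2 or any 1 of the 3 stomatal replicates (adjusted p between 0.057 and 0.129).

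XTH11 was well above background on stomatal arrays only. It was tested through stomatal groups alone, so a higher level than in leaves is partly built in. It read 5.56, 4.83 and 5.23 log2 units in Col-0 control stomata, against 2.72, 2.92 and 2.95 in leaves, and was at least 4.51-fold higher (adjusted p = 8.09e-06). In bam1 it was at least 2.57-fold higher in control stomata (adjusted p = 0.000587) and at least 4.47-fold higher in droughted stomata (adjusted p = 1.56e-05). These XTH11 bounds hold only for the processing used here. Over the alternatives the lowest log2 differences were 0.53 in Col-0 controls, 0.30 in bam1 controls and 0.64 in droughted bam1 plants. XTH16 read 10.82, 10.51 and 11.11 in Col-0 control stomata, against 8.86, 9.01 and 8.28 in leaves, 4.28-fold higher (2.10 ± 0.32, adjusted p = 8.3e-05). XTH10 read 8.28, 7.82 and 7.67, against 6.20, 6.19 and 5.55, 3.84-fold higher (1.94 ± 0.43, adjusted p = 0.00196). In Col-0 controls the stomatal and leaf arrays of these 3 genes did not overlap. In bam1 the differences of XTH16 were 1.07 ± 0.36 in controls and 1.82 ± 0.36 under drought, and those of XTH10 were 1.45 ± 0.49 and 1.47 ± 0.53, where 1 of the 3 droughted leaf arrays gave no value for XTH10. The control value of XTH10 in bam1 rested on stomatal replicate 1, at 8.23 against 6.20 in replicate 2, which overlapped the leaf arrays, and was 0.43 without it (adjusted p = 0.475). It was also lost without bam1 control leaf replicate 3 (adjusted p = 0.0924), and the drought value without stomatal replicate 1 or 2 or leaf replicate 3 (adjusted p = 0.158, 0.0716 and 0.175). The control difference of XTH16 in bam1 was 0.57 without stomatal replicate 1 (adjusted p = 0.317), and its call was also lost without leaf replicate 2 (adjusted p = 0.0564) or 3 (0.96, adjusted p = 0.069).

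XTH30 (1.31 ± 0.23, adjusted p = 0.0003) and XTH29 (at least 2.14-fold, adjusted p = 0.000993) were also higher in Col-0 control stomata. The XTH29 difference was under 2-fold without leaf replicate 1 (0.99) or stomatal replicate 3 (0.95), and its lowest log2 value over the alternatives was 0.245. XTH5 was called in bam1 controls (1.06 ± 0.29, adjusted p = 0.00872), though not without stomatal replicate 1 (0.92, adjusted p = 0.0769) or leaf replicate 2 (0.96, under 2-fold). In droughted bam1 plants 1 of the 2 stomatal arrays was well above background for XTH25, and XTH29 had passed the filter only through droughted stomata. In these plants XTH25 was 13.5-fold lower in stomata than in leaves (-3.75 ± 0.72, adjusted p = 0.000703) and XTH29 2.31-fold higher (adjusted p = 0.00141). XTH24 was 2.27-fold lower there (adjusted p = 0.0222), a call lost without stomatal replicate 1 (adjusted p = 0.0902) or 2 (adjusted p = 0.0866) or leaf replicate 1 (adjusted p = 0.0693). With the background corrected by normexp, 2 members were higher and 3 lower in Col-0 controls, 1 higher and 2 lower in bam1 controls and 1 higher and 3 lower in droughted bam1 plants, and XTH10, XTH11 and XTH29, all of low signal, were called in none of the 3. On slide 1, which held both tissues of Col-0 controls, all 8 called members differed at least 2-fold in the same direction. No slide held both tissues of bam1 controls or of droughted bam1 plants, so no such check within a slide exists for them. All 8 guard cell markers were called higher in stomata in each of the 3 comparisons. Of the 6 vascular markers, 3, 3 and 2 were called higher in Col-0 controls, bam1 controls and droughted bam1 plants, and 1 was called lower in each. Of the 4 epidermis and trichome markers, 1, 2 and 2 were called higher and 0 lower in Col-0 controls, bam1 controls and droughted bam1 plants. Among them GL2 was higher by 2.23 log2 units in Col-0 control stomata (adjusted p = 1.08e-06), and the summed signal of the 4 was 13.84 to 14.34 there, against 13.45 to 13.57 in leaves. The part of these markers in the differences was not tested.

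**Figure D5:**
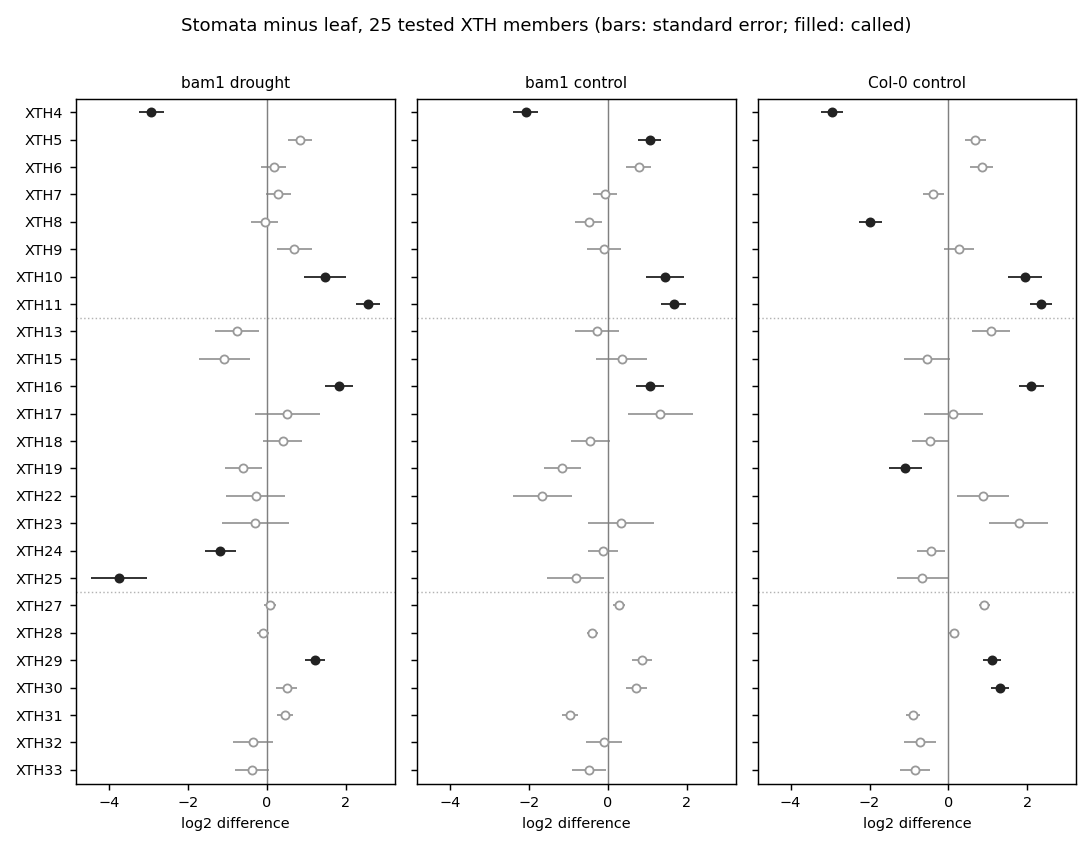
Log2 difference of stomata minus leaf for the 25 tested XTH members in droughted bam1 plants, bam1 controls and Col-0 controls, with the standard error as a bar, filled where called. XTH4 is filled on the left and XTH10, XTH11 and XTH16 on the right in all 3 panels.

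Of the members, 4 were read by more than 1 tested probe, and the probe of highest mean signal stood for the gene. The second probes of XTH4 and XTH27 were called the same way as the first in every comparison. The second probe of XTH9 differed in 1 comparison, where it was lower in bam1 control stomata than in leaves (-1.13, adjusted p = 0.0134) and the first probe was not (-0.10). XTH24 had 4 further probes. All 4 were called lower in droughted bam1 stomata, and 1 of them was called lower in droughted Col-0 stomata too (-1.50, adjusted p = 0.0302). A pair of them was called lower in Col-0 control stomata than in leaves (-1.26 and -1.42, adjusted p = 0.00432 and 0.00463), where the first probe was not (-0.44, adjusted p = 0.305).

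Genes that make or trim xyloglucan were read beside the family. All 17 genes of this list were tested: 5 glucan synthases (CSLC), 5 xylosyltransferases (XXT), the galactosyltransferases MUR3 and XLT2, the fucosyltransferase FUT1, the acetylation gene AXY4, and the trimming enzymes XYL1, BGAL10 and AXY8. Under drought 0 were called higher and 1 lower in Col-0 leaves, 0 and 1 in bam1 leaves, and 0 and 0 in stomata of both genotypes, with medians between -0.24 and -0.01. A single gene of 17 is near the 3.77% and 3.87% of all genes that were lower in those leaves, so nothing is read from it. CSLC4, which makes the glucan backbone, was the one that fell in Col-0 leaves (-1.20 ± 0.18, adjusted p = 0.000477), and XXT1, which adds xylose to it, the one in bam1 leaves (-1.31 ± 0.19, adjusted p = 0.000394). Between tissues BGAL10, a beta-galactosidase acting on xyloglucan, was lower in stomata, by 1.74 log2 units in Col-0 controls (adjusted p = 2.41e-07) and by 1.03 in bam1 controls (adjusted p = 0.000117). For tissue by drought in Col-0, where 1.79% of all genes were called, CSLC4 (1.11 ± 0.25, adjusted p = 0.0371) and BGAL10 (1.08 ± 0.22, adjusted p = 0.0258) were called. In both the change in stomata lay above that in leaves. These values include the library that went against its label and were not read without it. None of the 17 was called between bam1 and Col-0. The difference between this list and the XTH family was not tested.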

How the data were processed

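RNA from 20 pools of plants was read on 1-colour arrays. The deposited intensity values came from Agilent Feature Extraction 11.5.1.1 per the file headers, with background subtracted and spatial trends removed within each array. The authors also deposited a table of log2 values, quantile-normalised in GeneSpring with each probe's median subtracted, which served as an alternative only. Differences between its arrays correlated at 0.993 or more with those computed here.

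Processed signals were log2-transformed and quantile-normalised over all arrays, outlier spots were set missing and spots of a probe were averaged. Probes well above background on all arrays of at least 1 group were tested, 30665 of 43603. limma 3.58.1 in R 4.3.3 was fitted to all 8 groups, with 12 residual degrees of freedom, and p-values were adjusted by Benjamini-Hochberg over all tested probes. A call needed an adjusted p under 0.05 and a change of at least 2-fold. The tested probe of highest mean signal stood for a gene. Of the probes, 34348 (78.8%) were matched to a gene through RefSeq identifiers. Where no array of the dimmer group was well above background, the fold is a lower bound: each dim array was set to the higher of its own value and the lowest signal well above background on that array. Such a bound holds only for this processing, since alternatives gave smaller differences for XTH11, XTH29 and XTH33. The script was tested on simulated data. Figures were drawn with matplotlib 3.10.9 in Python 3.11.15.

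Every member was accounted for, those called in any of the 14 comparisons were named, and values on each array were given for those the drought and tissue results turn on. The members and gene lists were chosen with earlier results of these data known. Replicates are pools of plants, and their number limits the precision. P-values measure the spread between these pools. Alternatives were the background correction (normexp, offset 50, on median signals), a 75th percentile shift, the authors' log2 values, other filters, only the groups compared, slide and replicate blocks, the methods' t-test, the mean of probes and each array left out. No sequences are shown.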

Additional observations from a re-analysis of the deposited data

Results flagged for a closer look

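The drought change of XTH8 (AT1G11545) differed between the tissues of Col-0 by a test of the difference itself, the interaction of tissue with drought in limma. The change in stomata minus that in leaves was 2.35 ± 0.48 log2 units (adjusted p = 0.0256), from 0.16 in stomata and -2.20 in leaves. In bam1 the same interaction was 0.42 ± 0.48 (adjusted p = 0.883). Without the library labelled stomata Col-0 drought replicate 2, whose BAM1 signal went against its label, the value in Col-0 was 2.28 (adjusted p = 0.0592).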

How the results depend on the processing

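Of 60 calls, 12 were kept under every alternative that gave them a value and 0 changed sign. The 12 were XTH4, XTH6, XTH7, XTH8, XTH9 and XTH33 under drought in bam1 leaves, XTH4, XTH8, XTH16 and XTH30 between tissues in Col-0 controls, and XTH4 and XTH16 between tissues in droughted bam1 plants, of which XTH33 gave no value under the filter for signal above background on all arrays. That filter gave a value for 38 of the 60 calls and kept all 38. The mean of probes and the slide as a random block (correlation 0.0844) kept all 60. The deposited log2 table kept 58, no filter 56, the 75th percentile shift 54, normexp 44, only the groups compared 34 and the slide block 28. The methods' t-test kept 48 of 59 unadjusted and 20 of 59 after Benjamini-Hochberg. The causes were not tested, but the filter and the smaller fits leave fewer genes or arrays.

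Counts of members called that moved by over 1.5 times were these. Between stomata and leaves, normexp called 5 in Col-0 controls, 3 in bam1 controls and 4 in droughted bam1 plants, and the filter for signal above background on all arrays called 4, 3 and 3. That filter called 10 in bam1 stomata under drought. With only the groups compared, 1 was called in Col-0 stomata and 0 in bam1 stomata under drought, and 1 between bam1 and Col-0 control leaves. With the slide block, 0 and 3 were called in Col-0 and bam1 stomata under drought, 1 between tissues in bam1 controls, 0 between bam1 and Col-0 control leaves and 0 for tissue by drought in Col-0. Between bam1 and Col-0 control stomata 0 were called under normexp, the 75th percentile shift, that filter, only the groups compared and the slide block. The methods' t-test, unadjusted and with 2-fold, called 3 between tissues in bam1 controls and 8, 1 and 4 between bam1 and Col-0 in control leaves, droughted leaves and control stomata. After Benjamini-Hochberg it called 0 under drought in Col-0 leaves, Col-0 stomata and bam1 stomata, 0 and 4 between tissues in bam1 controls and droughted bam1 plants, and 0 between bam1 and Col-0 in control leaves and control stomata.

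Same-numbered samples did not deviate together (correlations of -0.26 to 0.16), so the numbers were not taken as pairs. With the replicate block, 6, 9, 4 and 16 members were called under drought in Col-0 leaves, bam1 leaves, Col-0 stomata and bam1 stomata, and 0 between bam1 and Col-0 control stomata, and 55 of the 60 calls were kept. A crossed pairing of bam1 stomata, added after seeing the data, called 16.

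With 1 array left out, 4 to 8 members were called under drought in Col-0 leaves, 9 to 11 in bam1 leaves, 1 to 5 in Col-0 stomata and 7 to 16 in bam1 stomata (7 without control replicate 2). Between tissues the ranges were 6 to 9 in Col-0 controls, 2 to 9 in bam1 controls (2 without stomatal replicate 1, 9 without replicate 2) and 5 to 8 in droughted bam1 plants. Between bam1 and Col-0 they were 1 to 5 in control leaves, 0 to 0 in droughted leaves and 0 to 2 in control stomata. The interactions gave 0 to 0 for genotype by drought in leaves, 0 to 2 in stomata, 0 to 2 for tissue by drought in Col-0 and 0 to 1 in bam1.

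Scaling moved the split of higher and lower calls. Under drought, normexp and the 75th percentile shift each gave 0 higher and 2 lower members in Col-0 stomata and 1 higher and 13 lower in bam1 stomata, so that XTH11 and XTH29 were not called. No scaling moved the median of all genes by over 0.1 log2 units. Groups of 2 arrays limit the precision, and XTH11, XTH23, XTH29 and XTH33 lay near background in some groups.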
